A study of Mus musculus with 6 samples.

Results

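The transcription factors of endothelial cells, the cells that line blood vessels, were examined in visceral fat, the adipose tissue around the organs of the abdomen. The set holds 10 of the 46603 genes in the count tables, namely Sox7, Sox17, Sox18, Tcf15, Meox2, Erg, Fli1, Ets1, Tal1 and Epas1. They were listed by symbol as factors of endothelial identity and of fat capillaries. Tcf15 was chosen by its measured counts, which were lower in the knockout libraries used here, so its values below are a description with no test. The libraries came from untreated C57/Bl6 mice aged 18 months, 3 of the wild type (WT) and 3 of a knockout of nuclear myosin 1 (NM1 KO). This protein is a nuclear isoform of the motor protein encoded by Myo1c. The sources used here do not give the altered allele or the sex. Replicates are numbered in the labels but not tied each to its own mouse, and the p-values therefore cover only the spread among these libraries, which may be technical. In RNA from whole tissue, fewer cells of a type and less RNA per cell cannot be told apart.

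Endothelial cells keep their identity through a small circuit of transcription factors that bind the enhancers of vessel genes and of each other. The SOXF proteins (Sox7, Sox17 and Sox18) carry an HMG box and act in arterial, venous and lymphatic development. The ETS proteins (Erg, Fli1 and Ets1) bind sites with a GGAA core, found in most endothelial enhancers. Tal1 is a basic helix-loop-helix factor shared by blood and vessel lineages, Epas1 is the oxygen-regulated factor HIF-2alpha, and Meox2 with Tcf15 forms a pair known from capillaries of heart and fat, where it promotes the uptake of fatty acids.

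Of the 10 members, 3 (Meox2, Erg and Tal1) had a promoter in the RefSeq table of GRCm38.p6. The 250 bases before the start are shown for these 3 because the table held no other member. The factors of the set bind short motifs of the kind searched here. Capitals mark each GGAA, the core of ETS sites, on either strand (TTCC on the strand shown).
Meox2 promoter, chr12:37108290-37108539, plus strand: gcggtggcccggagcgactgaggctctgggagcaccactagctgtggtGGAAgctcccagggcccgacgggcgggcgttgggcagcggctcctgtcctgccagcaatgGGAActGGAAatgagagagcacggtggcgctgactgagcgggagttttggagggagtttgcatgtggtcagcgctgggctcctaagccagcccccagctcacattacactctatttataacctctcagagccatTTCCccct
Erg promoter, chr16:95586594-95586843, minus strand: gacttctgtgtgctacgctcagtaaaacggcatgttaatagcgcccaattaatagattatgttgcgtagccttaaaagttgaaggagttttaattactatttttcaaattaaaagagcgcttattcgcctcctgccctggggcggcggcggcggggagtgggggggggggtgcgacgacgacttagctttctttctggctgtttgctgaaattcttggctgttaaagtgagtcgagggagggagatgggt
Tal1 promoter, chr4:115056176-115056425, plus strand: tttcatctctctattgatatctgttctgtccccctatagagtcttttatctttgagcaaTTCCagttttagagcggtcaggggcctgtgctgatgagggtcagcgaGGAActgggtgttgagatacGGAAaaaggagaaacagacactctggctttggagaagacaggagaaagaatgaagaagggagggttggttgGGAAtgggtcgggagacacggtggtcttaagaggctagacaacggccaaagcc
The Meox2 and Tal1 windows held 4 copies of GGAA each and the Erg window held 0. The promoter table held 3 starts for Erg and 2 for Tal1, and only the window at the outermost annotated start was searched. Which start was in use in this tissue was not measured. Of all 32851 promoter windows of this length in the table, 93.4% held GGAA on at least one strand. GATA, the core of the sites of GATA factors that work with Tal1, was found 4 times before Tal1 and 0 times before Meox2 and Erg, and 53.6% of all windows held it on either strand. The E-box CANNTG, the site of helix-loop-helix factors, was found 1 time before Meox2 and 0 times before the other two, against 66.2% of all windows. ACAAT, a core of SOX sites, was found on neither strand in the 3 windows and in 27.7% of all windows. These are matches of letters in a short window, and no binding was measured here. The motifs were counted separately, and copies may overlap.

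The libraries held between 24677758 and 33537818 gene counts. All 10 members passed the filter on low counts, with between 89 and 15518 counts in a library. Myo1c, whose count covers every isoform, lay between 759 and 801 CPM in WT and between 452 and 697 CPM in NM1 KO (log2 -0.47 ± 0.17, adjusted p = 0.151), which does not check the knockout. CPM is counts per 1000000 counts after TMM scaling of the library sizes. Fold changes are on the log2 scale, NM1 KO minus WT, with the SE. A gene is called when the Benjamini-Hochberg adjusted p over all 15828 tested genes, from edgeR's quasi-likelihood test, is under 0.05. The fat cell genes Adipoq (2478 ± 76.1 CPM in WT) and Plin1 and the endothelial genes Pecam1 (198 ± 34.7 CPM) and Cdh5 (224 ± 59.2 CPM) were present in all 6 libraries.

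Of the 9 members other than Tcf15, Sox17, Sox18 and Erg fell in NM1 KO and none rose. Of all tested genes, 1.47% were called lower and 2.79% higher. These shares also apply to the calls from all libraries in the gene lists below. Of all 15828 tested genes, 7954 had a negative and 7874 a positive log2 fold change. Meox2, Sox7, Tal1, Epas1, Fli1 and Ets1 were not called, and 8 of the 9 had an unadjusted p under 0.05. How many of all tested genes had such an unadjusted p was not counted, here or for the gene lists below. The WT and NM1 KO libraries did not overlap, with NM1 KO lower, for 8 of the 9, which was also seen in 15.0% of all tested genes. Ets1 was the member whose groups overlapped. The 3 calls rest on all libraries: 0 of the 9 were called without WT replicate 1, WT replicate 2, WT replicate 3 or NM1 KO replicate 3, where 0.225%, 0.0247%, 0.00608% and 0.0304% of all genes were called. Sox17 and Sox18 were called without NM1 KO replicate 1, where 1.51% of all genes were called. Sox7, Sox17, Sox18 and Tal1 were called without NM1 KO replicate 2, where 10.2% of all genes were called.

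**Figure D1:**
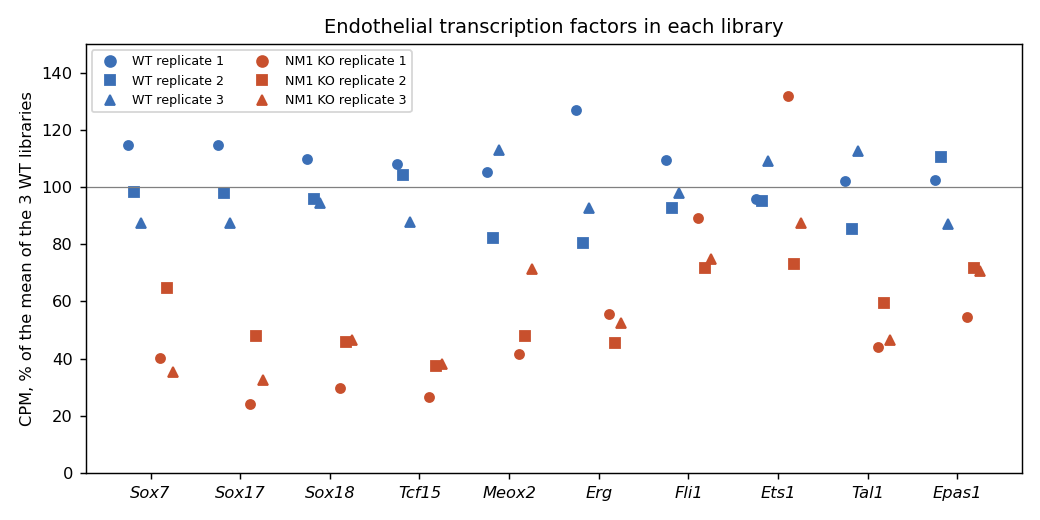
Level of each transcription factor in each library, as CPM in percent of the mean of the 3 WT libraries (grey line at 100); colours give the genotype and symbols the replicate. The NM1 KO points lie below all WT points for 9 genes including Tcf15, and Ets1 has 1 NM1 KO library (93.9 CPM) above all WT libraries.

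The SOXF genes were the members with the lowest NM1 KO levels relative to WT beside Tcf15. Sox17 (ENSMUSG00000025902, chromosome 1, 4490931 to 4497354 on GRCm38), a factor of arterial endothelium, had 34.2, 29.2 and 26.1 CPM in the WT libraries (replicates 1 to 3) and 7.24, 14.3 and 9.66 CPM in the NM1 KO libraries, listed in the same order here and below. Each NM1 KO library lay below each WT library, and NM1 KO replicate 1 was the lowest. The mean fell from 29.9 ± 4.11 to 10.4 ± 3.61 CPM (SD, n = 3), 34.9% of WT, with a log2 fold change of -1.52 ± 0.26 (edgeR adjusted p = 0.0307). A transcript on the opposite strand, Gm37587, overlaps 804 bases of the Sox17 exons but had at most 1 count in any library.

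Sox18 (ENSMUSG00000046470, chromosome 2, 181669836 to 181671640), which acts in vessel and lymphatic development, had 51.4, 44.8 and 44.2 CPM in WT and 13.9, 21.5 and 21.7 CPM in NM1 KO. The WT libraries were close together, and NM1 KO replicate 1 again lay lowest. Sox18 fell to 40.7% of WT (log2 -1.30 ± 0.19, edgeR adjusted p = 0.0227). Sox7 (ENSMUSG00000063060, chromosome 14, 63943673 to 63950732), the third SOXF gene, had 20.2, 17.3 and 15.4 CPM in WT and 7.08, 11.4 and 6.23 CPM in NM1 KO. Its highest NM1 KO library was replicate 2, and the groups did not overlap. The mean was 46.6% of WT (log2 -1.10 ± 0.25), and the gene was not called (edgeR adjusted p = 0.0593, 0.0163 without NM1 KO replicate 2).

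The SOXF genes were also set against each other within each library, and no pair passed its test. The log2 of Sox7 minus that of Sox17, both from CPM + 0.5, was -0.75, -0.74 and -0.74 in the WT libraries and -0.03, -0.32 and -0.59 in NM1 KO. The difference was 0.43 higher in NM1 KO, and the groups did not overlap (exact two-sided permutation p = 0.1, adjusted over 6 pairs 0.200), where 0.1 is the smallest p that 3 against 3 allows. Sox18 minus Sox17 differed by 0.22 and Sox18 minus Sox7 by -0.21 between the genotypes, with overlapping libraries and exact permutation p of 0.400 for each.

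Meox2 and Tcf15 encode the partners known from fat and heart capillaries. Tcf15 (ENSMUSG00000068079, chromosome 2, 152143561 to 152149097), a basic helix-loop-helix factor also called paraxis, had 30.9, 29.8 and 25.1 CPM in WT and 7.56, 10.7 and 10.9 CPM in NM1 KO. Every NM1 KO library lay under every WT library, and the means were 28.6 ± 3.07 and 9.72 ± 1.87 CPM (log2 -1.56 ± 0.18). It was picked for this difference, so no test is given. Leaving out each library in turn gave log2 values from -1.65 to -1.39. Tcf15 had the highest GC content of the set (65.8%), and the log2 fold change was -1.42 in a fit that takes out how each library follows GC content and gene length (the GC and length offset).

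Meox2 (ENSMUSG00000036144, chromosome 12, 37108540 to 37179534), a homeobox factor, had 28.8, 22.5 and 30.9 CPM in WT and 11.4, 13.1 and 19.5 CPM in NM1 KO. The groups did not overlap, but NM1 KO replicate 3 came within a few CPM of WT replicate 2. The mean was 53.5% of WT (log2 -0.90 ± 0.23), and Meox2 was not called (edgeR adjusted p = 0.0740). The log2 of Tcf15 minus that of Meox2 was 0.07 ± 0.35 in WT and -0.55 ± 0.26 in NM1 KO. This pair is a description, and WT replicate 3 (-0.29) and NM1 KO replicate 2 (-0.28) lay side by side. Meox1, the paralogue of Meox2, had a mean of 6.86 ± 1.33 CPM in the wild type against 9.53 ± 0.833 in NM1 KO and was not called (log2 0.47, edgeR adjusted p = 0.201).

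Of the 3 ETS genes, Erg was called lower, and Fli1 and Ets1 were not called. Erg (ENSMUSG00000040732, chromosome 16, 95359169 to 95586593), a regulator of junctions and quiescence in mature endothelium, had 24.3, 15.4 and 17.7 CPM in WT and 10.6, 8.70 and 10 CPM in NM1 KO. WT replicate 1 was the highest, and all NM1 KO libraries lay close together below WT. Erg fell to 51.1% of WT (log2 -0.97 ± 0.20, edgeR adjusted p = 0.0457), nearest to the threshold among the called members. It was not called with RLE size factors (adjusted p = 0.0508), under the GC and length offset (0.0551) or without any single library (adjusted p from 0.0553 to 0.132).

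Fli1 (ENSMUSG00000016087, chromosome 9, 32422204 to 32542861), an ETS factor of endothelium that leukocytes and platelets also express, had 45.0, 38.1 and 40.2 CPM in WT and 36.6, 29.4 and 30.7 CPM in NM1 KO. The groups were separated by less than 2 CPM, between WT replicate 2 and NM1 KO replicate 1, and Fli1 was not called (log2 -0.35 ± 0.13, edgeR adjusted p = 0.158). Ets1 (ENSMUSG00000032035, chromosome 9, 32636221 to 32757820), which is abundant in lymphocytes as well as in endothelium, lies 93.4 kb from Fli1 with 0 protein-coding genes between them. It had 68.3, 67.9 and 77.8 CPM in WT and 93.9, 52.0 and 62.3 CPM in NM1 KO. The NM1 KO libraries lay on both sides of WT, with replicate 1 highest of all 6, and the log2 fold change was -0.04 ± 0.21 (edgeR adjusted p = 0.931). Without NM1 KO replicate 1 it was -0.30 (adjusted p = 0.326), and without NM1 KO replicate 2 it was 0.13.

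Erg was also set against Fli1 and Ets1 within each library, and no pair passed its test. The log2 of Erg minus that of Fli1 was -0.87, -1.28 and -1.16 in WT and -1.74, -1.70 and -1.57 in NM1 KO, so that the NM1 KO values were lower by 0.56 and did not overlap those of WT (exact permutation p = 0.1, adjusted 0.200). Erg minus Ets1 was -1.89 ± 0.37 in WT and -2.73 ± 0.31 in NM1 KO, also without overlap (exact permutation p = 0.1, adjusted 0.200). Fli1 minus Ets1 overlapped between the genotypes (difference -0.27, exact permutation p = 0.300). These tests cannot reach 0.05 with 3 libraries a group.

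Markers of white blood cells that express Fli1 and Ets1 differed between the same libraries. The summed level of 14 T, NK and B cell genes lay between 82.5 and 136 CPM in WT and was 342, 67.4 and 98.1 CPM in NM1 KO replicates 1 to 3, so the library with the highest Ets1 was also the highest in lymphocyte genes. All 14 had a positive log2 fold change, 1 was called higher (Il7r, the interleukin-7 receptor, log2 2.50, edgeR adjusted p = 0.0472) and none was at 0. The sum of 12 macrophage genes lay between 2655 and 3706 CPM in WT and between 5217 and 6339 in NM1 KO. Of these 12, 4 were called higher (Adgre1, Cd68, Tyrobp and Lyz2), 0 were called lower and none was at 0. Of all tested genes, 2.79% were called higher. Il7r was not called without WT replicates 1, 2 or 3 or NM1 KO replicate 3. Of the macrophage genes, 2 were called without WT replicate 1 and 0 without WT replicates 2 or 3 or NM1 KO replicate 3. The part of these cells in the Fli1 and Ets1 values was not tested.

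Tal1 (ENSMUSG00000028717, chromosome 4, 115056426 to 115071755) had the lowest level per kb of the set, with 7.10, 5.95 and 7.85 CPM in WT and 3.06, 4.15 and 3.24 CPM in NM1 KO. The groups did not overlap, and the mean was 50.0% of WT (log2 -1.0 ± 0.22). It was not called (edgeR adjusted p = 0.0566), although it was without NM1 KO replicate 2 (adjusted p = 0.0364) and in the fit with the GC and length offset (0.0488). Tal1 also acts in red cell precursors, platelets and mast cells. The summed level of 16 genes of those cells lay between 1214 and 1343 CPM in WT and between 755 and 1103 in NM1 KO. Of these, 13 were tested, 9 had a negative log2 fold change, edgeR called 0 (6 at an unadjusted p under 0.05), DESeq2 3 and limma-voom 1, and none was at 0. The red cell genes Alas2 (log2 -0.74, edgeR adjusted p = 0.0566), Hba-a2 (log2 -0.88), Hba-a1 (log2 -0.76) and Hbb-bt (log2 -0.65) lay lower in NM1 KO without overlap. Positive values were found for 4 genes, among them the platelet gene Pf4 (log2 0.44) and the mast cell proteases Cpa3 (log2 0.41) and Tpsb2 (log2 0.11). Pf4 was among the 6 at an unadjusted p under 0.05, so those 6 did not all lie lower. Cpa3 had 40.5, 12.3 and 19.5 CPM in NM1 KO against 16.1 to 20.4 in WT. The red cell master factor Klf1, not tested for its low counts, had a mean of 0.220 ± 0.158 CPM in the wild type and 0.216 ± 0.151 in the knockout. Their part in the Tal1 values was not tested.

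Tal1 works in a complex with LIM-domain adaptors and E-proteins. Of 10 such partners, 1 was called higher and 1 lower, with a median log2 fold change of -0.27 against -0.002 over all tested genes. Cbfa2t3, a corepressor found in Tal1 complexes, had 32.1, 26.1 and 26.8 CPM in WT and 18.9, 18.8 and 15.9 CPM in NM1 KO and fell (log2 -0.67, edgeR adjusted p = 0.0445). Tcf12, an E-protein that pairs with Tal1, had between 51.6 and 56.5 CPM in WT and between 71.3 and 79.8 in NM1 KO and rose (log2 0.50, edgeR adjusted p = 0.0409). Neither partner was called without WT replicates 1, 2 or 3 or NM1 KO replicates 1 or 3. Gata2 (log2 -0.62, edgeR adjusted p = 0.0897) and Lmo2, the adaptor that bridges Tal1 to GATA factors (log2 0.64, edgeR adjusted p = 0.112), were not called and had opposite signs.

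Epas1 (ENSMUSG00000024140, chromosome 17, 86753700 to 86833410) had the highest level per kb of the set, with 459, 496 and 391 CPM in WT and 245, 321 and 317 CPM in NM1 KO. The groups did not overlap and the mean was 65.6% of WT (log2 -0.61 ± 0.15), without a call (edgeR adjusted p = 0.0689). Epas1 is also made by fat cells, and the summed level of 12 adipocyte genes was between 24707 and 27576 CPM in WT and between 17707 and 23933 in NM1 KO. Within that sum, Cfd (adipsin) had means of 6128 and 1975 CPM and Lep (leptin) of 1946 and 4346 CPM in WT and NM1 KO. Pnpla2 (log2 -0.66, edgeR adjusted p = 0.0924) and Retn (log2 -1.24, edgeR adjusted p = 0.0937) lay lower in NM1 KO without overlap. Pparg (log2 0.09) and Cebpa (log2 -0.15), factors of fat cell identity, had overlapping groups. Of those 12, 10 had a negative log2 fold change, edgeR called 0 (5 at an unadjusted p under 0.05), DESeq2 4 and limma-voom 1, and none was at 0. Their part in the Epas1 values was not tested. Among 19 partners, oxygen sensors and textbook targets of the HIF factors, 1 was called lower and 0 higher. The shares of all tested genes were 1.47% and 2.79%. Of the 19, 10 had a negative and 9 a positive log2 fold change, and the median was -0.01. The called gene, Vegfa, the growth factor of vessel formation, fell from 374 ± 7.34 to 179 ± 44.9 CPM (edgeR adjusted p = 0.0304). It was not called without WT replicates 1, 2 or 3 or NM1 KO replicates 1 or 3. Hif1a, the other main oxygen-regulated subunit, had a mean of 73.1 ± 13.5 CPM in the wild type and 91.2 ± 22.5 in the knockout (log2 0.32, edgeR adjusted p = 0.401), and Arnt, the shared partner, differed by -0.19 on the log2 scale (edgeR adjusted p = 0.355).

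Divided by the length of the merged exons, the levels ordered the members in WT as Epas1 (80.3 ± 9.51 CPM per kb), Tcf15 (29.2 ± 3.13), Sox18 (28.9 ± 2.47), Fli1 (11.8 ± 1.01), Meox2 (11.6 ± 1.86), Ets1 (8.42 ± 0.663), Sox17 (6.26 ± 0.862), Erg (5.52 ± 1.34), Sox7 (5.35 ± 0.738) and Tal1 (1.59 ± 0.220). The ranges of the WT libraries overlapped for Tcf15 and Sox18, for Fli1 and Meox2, and for Sox17, Erg and Sox7, although Sox17 stood above Sox7 within every WT library. In NM1 KO the order per kb was Epas1 (52.7 ± 7.67), Sox18 (11.7 ± 2.73), Tcf15 (9.91 ± 1.91), Fli1 (9.25 ± 1.10), Ets1 (8.19 ± 2.58), Meox2 (6.21 ± 1.81), Erg (2.82 ± 0.284), Sox7 (2.50 ± 0.838), Sox17 (2.18 ± 0.757) and Tal1 (0.796 ± 0.134). There, the ranges of Sox18, Tcf15, Fli1 and Ets1 overlapped. Meox2 overlapped with Tcf15 and Ets1, and Erg, Sox7 and Sox17 with each other. Within libraries, Sox17 stood below Sox7 per kb in NM1 KO replicates 1 (1.52 against 2.15) and 2 (3.01 against 3.45).

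**Figure D2:**
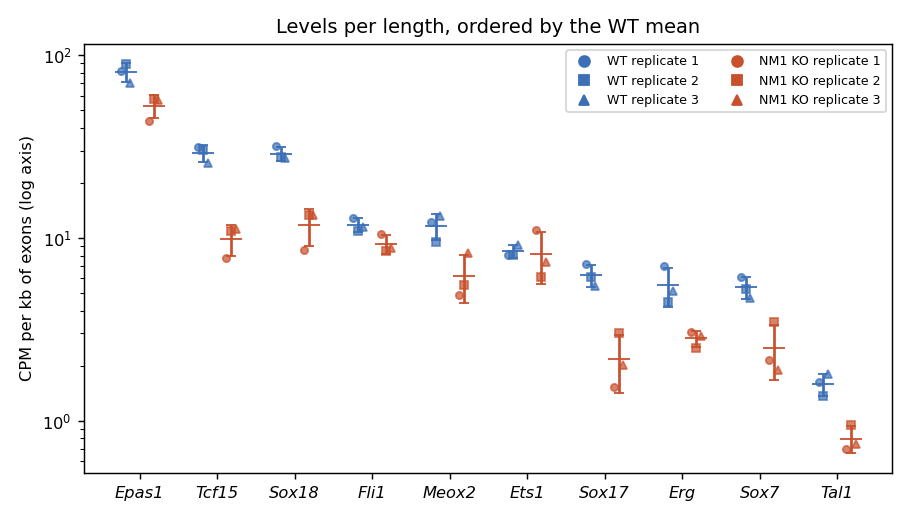
CPM per kb of merged exons on a log axis for each transcription factor, ordered by the WT mean; points are libraries, horizontal marks the means and bars the SD (n = 3). Epas1 (80.3 in WT) and Tal1 (1.59 in WT) are the ends of the order in both genotypes, and Ets1 is the gene whose NM1 KO points spread around its WT points.

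The surface and junction genes of vascular endothelium were lower in the same libraries. Their log2 fold changes were negative for all 16, with a median of -1.01, and 9 were called lower and 0 higher. Of all 15828 tested genes, 7954 had a negative log2 fold change, and 1.47% were called lower. The summed level of the 16 was 1790.3, 1626 and 1398 CPM in WT and 561, 832 and 817 CPM in NM1 KO, and none was at 0. The values ran from Robo4, a guidance receptor of vessels (log2 -1.72), to Tek, the angiopoietin receptor, which was not called (log2 -0.44, edgeR adjusted p = 0.345). Besides Robo4, Egfl7 (log2 -1.49), Flt1 (log2 -1.67), Eng (log2 -1.07) and Emcn (log2 -0.89) were among those that fell. None of the 16 was called without WT replicates 1, 2 or 3 or NM1 KO replicate 3, and 5 were called without NM1 KO replicate 1. Of the factors, 8 had fold changes inside this range, and Fli1 and Ets1 lay outside it.

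**Figure D3:**
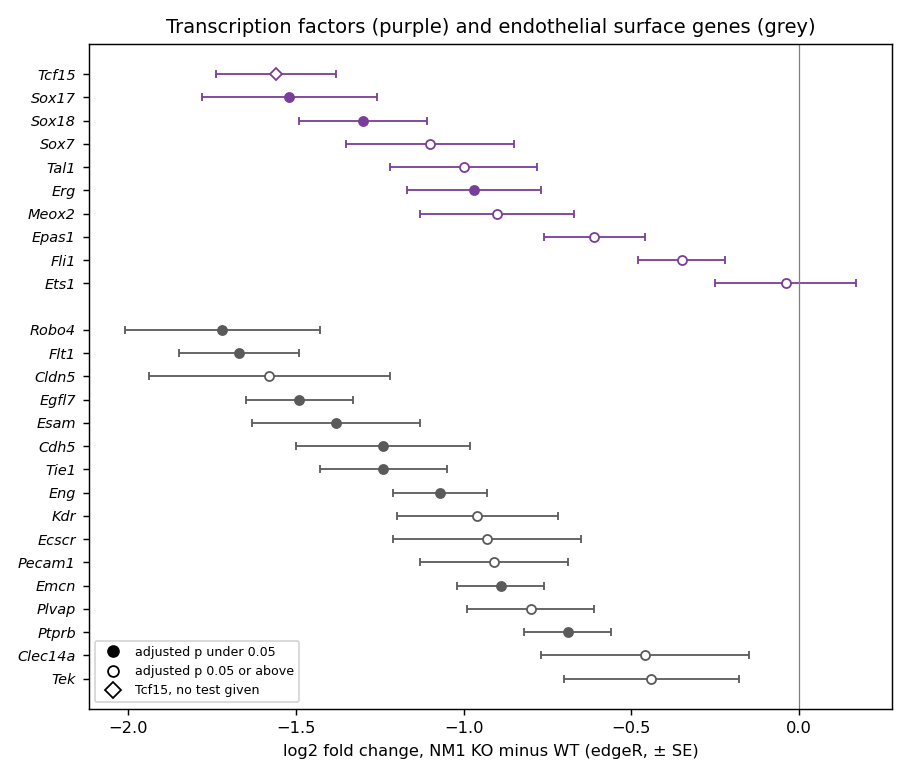
Log2 fold change (NM1 KO minus WT, edgeR) of the 10 transcription factors (purple) and 16 endothelial surface genes (grey), with bars for the SE and filled symbols for an adjusted p under 0.05; Tcf15 is drawn as a diamond without a test. The factors run from -1.56 (Tcf15) to -0.04 (Ets1), and the surface genes from -1.72 (Robo4) to -0.44 (Tek).

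Each factor was then set against the mean log2(CPM + 0.5) of these 16 genes in its own library. That mean was itself lower in NM1 KO, at 6.39, 6.23 and 6.10 in WT and 4.82, 5.35 and 5.30 in NM1 KO. A gene with unchanged CPM would therefore stand higher relative to it, and the median log2 fold change over all tested genes was -0.002. How many of all tested genes stood higher without overlap was not counted. Relative to that mean, Ets1 stood higher in NM1 KO by 1.00, Fli1 by 0.74 and Epas1 by 0.47, with no overlap between the genotypes. For Fli1 the values were -0.88, -0.96 and -0.75 in WT and 0.40, -0.45 and -0.34 in NM1 KO, so NM1 KO replicate 1 stood apart. Epas1 had 2.45, 2.73 and 2.51 in WT and 3.12, 2.98 and 3.01 in NM1 KO, with the NM1 KO libraries close together. Ets1 had -0.29, -0.13 and 0.19 in WT and 1.75, 0.36 and 0.67 in NM1 KO. Without NM1 KO replicate 1 the differences were 0.59 for Ets1 and 0.47 for Fli1.

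Sox17 and Sox18 stood lower relative to the surface genes, by 0.43 and 0.22 on the log2 scale, again without overlap. Sox17 had -1.27, -1.33 and -1.37 in WT and -1.86, -1.46 and -1.95 in NM1 KO, and Sox18 had -0.69, -0.73 and -0.62 against -0.96, -0.89 and -0.83. After removal of the GC and length trends, the Sox18 difference was -0.03 and the Sox17 difference -0.38. All 5 genes had an exact permutation p of 0.1, the smallest possible, and 0.180 adjusted over the 9 members tested. Tcf15, given without a test, had -1.42, -1.31 and -1.42 in WT and -1.80, -1.87 and -1.78 in NM1 KO. The libraries of the genotypes overlapped for Sox7, Erg, Meox2 and Tal1, whose mean differences were -0.01, 0.17, 0.18 and 0.18 (exact permutation p of 1.00, 0.600, 0.5 and 0.400). That these 4 differ from the surface genes was not detectable with 3 libraries a group.

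**Figure D4:**
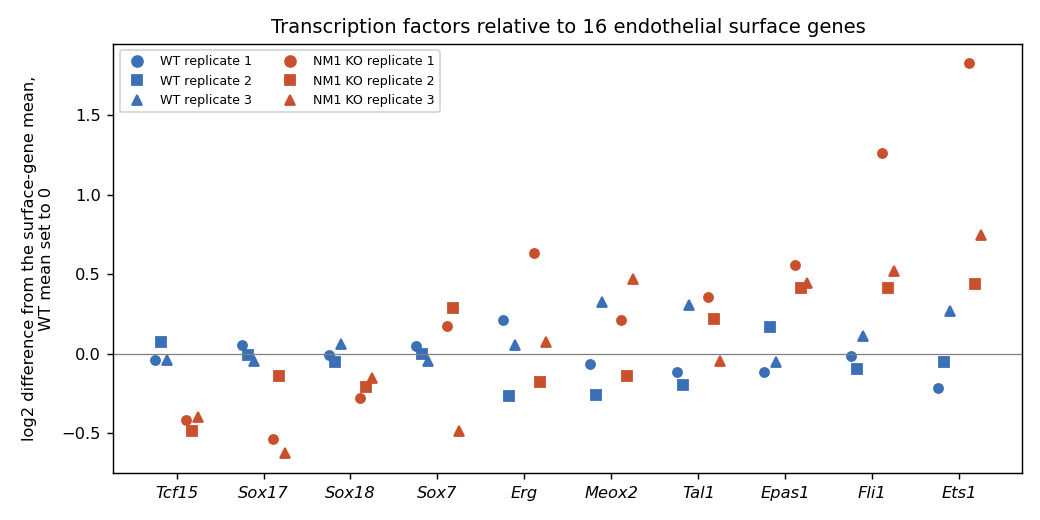
Log2(CPM + 0.5) of each transcription factor minus the mean of 16 endothelial surface genes in the same library, with the WT mean of each factor set to 0; genes are ordered by the NM1 KO minus WT difference. The order runs from Tcf15 (-0.44) and Sox17 (-0.43) to Ets1 (1.00), where NM1 KO replicate 1 lies highest.

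Of 27 other transcription factors known in endothelium, 26 were tested, and Bcl6b and Sox13 were called lower and 0 higher, where 1.47% of all genes were called lower. Of the 26, 17 had a negative and 9 a positive log2 fold change, and the median was -0.40. Bcl6b, a repressor of the BCL6 family enriched in endothelium, had 20.2, 23.3 and 26.0 CPM in WT and 7.66, 10.9 and 10.6 CPM in NM1 KO and fell (log2 -1.25, edgeR adjusted p = 0.0237). Sox13, a SOXD factor, had between 31.3 and 37.4 CPM in WT and between 13.1 and 18.7 in NM1 KO and fell (log2 -1.06, edgeR adjusted p = 0.0246). Ets2, another ETS gene, was not called (log2 -0.68, edgeR adjusted p = 0.0695), nor was Id1, an inhibitor of helix-loop-helix factors (log2 -1.52, adjusted p = 0.0758). Neither Bcl6b nor Sox13 was called without WT replicates 1, 2 or 3 or NM1 KO replicate 3.

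Meox2 and Tcf15 are known to support the uptake of fatty acids in heart capillaries. Genes by which fat capillaries handle fatty acids and water had fold changes of both signs. Of 12, 2 were called lower and 0 higher, where 1.47% of all tested genes were called lower. A negative log2 fold change was found for 9 of the 12, and the median was -0.47. Gpihbp1, the capillary anchor of lipoprotein lipase, had 116, 116 and 83.5 CPM in WT and 25.9, 52.0 and 47.8 CPM in NM1 KO and fell (log2 -1.33, edgeR adjusted p = 0.0446). Car4, a membrane carbonic anhydrase of capillaries, fell from 34.4 ± 14.3 to 7.26 ± 2.56 CPM (log2 -2.25, edgeR adjusted p = 0.0322). Rbp7 (log2 -1.40, adjusted p = 0.0609 by edgeR) and Aqp1, a water channel (log2 -1.21, adjusted p = 0.0616 by edgeR), were not called. Fabp5, a fatty acid carrier, had the highest fold change of the 12 (log2 0.99, edgeR adjusted p = 0.112), and its groups did not overlap. Which cells of the tissue gave the Fabp5 counts was not tested. Cd36 (log2 0.36), Fabp4 (log2 -0.13) and Lpl (log2 0.50), which fat cells also express strongly, were not called either. Neither Gpihbp1 nor Car4 was called without WT replicates 1, 2 or 3 or NM1 KO replicate 3, and 1 of the 12 genes was called without NM1 KO replicate 1.

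Other vessel and lining cells were measured in the same way. Of 12 genes of pericytes and smooth muscle, 11 had a negative log2 fold change with a median of -0.63. Of the 12, 1 was called lower (Myh11), where 1.47% of all tested genes were. The summed level of the 12 was 878 to 1159 CPM in WT and 615 to 824 in NM1 KO. Of 6 matched lymphatic genes, 3 had a negative and 3 a positive log2 fold change. Negative values were those of Lyve1 (log2 -1.38), Pdpn (log2 -0.95) and Flt4 (log2 -0.92), whose WT means were 228, 129 and 15.7 CPM. Lyve1 and Pdpn had the highest WT means of the 6 and carry most of their sum. Whether the counts of Lyve1 and Pdpn came from lymphatic cells was not tested. The genotypes overlapped for Pdpn but not for Lyve1 or Flt4. The 3 genes with positive values, Prox1 among them, had WT means of 2.73 CPM or less, and their groups overlapped. EdgeR and limma-voom called 0 of the 6 (3 at an unadjusted p under 0.05 in edgeR). DESeq2, which called 12.8% of all genes, called 2 of the 6. Their sum was 247 to 461 CPM in WT and 125 to 236 in NM1 KO, and Prox1, the defining lymphatic factor and a partner of Sox18 in that lineage, had 0.518, 0.192 and 0.962 CPM in WT and 4.02, 0.214 and 0.583 CPM in NM1 KO. NM1 KO replicate 1 stood apart from the other 5 libraries in Prox1, and the other NM1 KO libraries lay within the range of WT. All 8 mesothelial genes had a negative log2 fold change, and 2 were called lower (Wt1 and Nkain4), against 1.47% of all tested genes. The sums of the 8 were 819 to 1261 CPM in WT and 612 to 896 in NM1 KO. Myh11, Wt1 and Nkain4 were not called without WT replicates 1, 2 or 3 or NM1 KO replicate 3, and Wt1 and Nkain4 also not without NM1 KO replicate 1. The part of these cells in the values of the transcription factors was not tested.

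The libraries also differed in their relation to base composition. Taken over 13933 protein-coding genes (genes, not replicates), the rank correlation (Spearman) between a library's deviation from the mean and GC content was 0.35, 0.26 and 0.14 for WT and -0.43, 0.24 and -0.46 for NM1 KO. The members' GC content ran from 44.5% (Fli1) to 65.8% (Tcf15), with 60.9% for Sox18. Genes within 1 percentage point of a member's GC content had median log2 fold changes between -0.19 (around Sox18) and 0.16 (around Fli1). With the GC and length offset, Sox7, Sox17, Sox18 and Tal1 were called and Erg was not, and 4.52% of all genes were called.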

How the data were processed

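Visceral fat RNA of 3 WT and 3 NM1 KO samples was sequenced after library preparation with the NEBNext Ultra II RNA kit, per the labels' protocols. Per the submitters' processing notes, reads were handled with HISAT2 2.0.4 and HTSeq, besides Trimmomatic 0.36, SAMtools 0.1.19 and FastQC, on the build GRCm38 (mm10). The sources used here do not state the annotation or the strand setting. The authors deposited whole-number counts per Ensembl gene with no normalization (46603 identifiers, 46091 matched to GENCODE M21 of the same build, and 0 rows that name no gene).

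The test of all genes was that of edgeR 4.0.16, run in R 4.3.3 (filterByExpr, TMM, robust quasi-likelihood, genotype as the only term, two-sided), and checked on simulated data. Ratios used log2(CPM + 0.5) and exact permutation tests. The 10 members and all gene lists were chosen with earlier results of these data known. The named genes are all members, Myo1c, up to 4 genes per list, by smallest p among those averaging 1 CPM or more, the surface genes with the lowest and highest fold change, and some list genes added after their values were seen (Meox1, Hif1a, Arnt, Pdk1, Cd36, Fabp4, Fabp5, Lpl, Pparg, Cebpa, Cpa3, Tpsb2, Klf1, Prox1, Adipoq, Plin1, Pecam1 and Cdh5). Pf4 was also added after its value was seen. Not every gene the rule selects is printed. Lists share Gata1, Gata2, Lmo2, Lyl1 and Prox1, and 1 lymphatic symbol that names several identifiers was left out. Within groups, Pearson's r of log2 CPM was 0.961 to 0.979 and counts of library pairs differed beyond sampling noise (chi-square per degree of freedom 38.2 or more).

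Alternatives were other size factors, filters and dispersion settings, the replicate number as a block, each library left out, a GC and length offset (splines with 5 degrees of freedom), DESeq2 1.42.0 and limma 3.58.1 (voom with quality weights). Promoter windows came from the RefSeq table of GRCm38.p6. Figures were drawn with matplotlib 3.10.9.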

Additional observations from a re-analysis of the deposited data

How the results depend on the processing

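The 673 genes called in all and the 3 members called (of the 9 other than Tcf15) moved with the tool and the libraries. DESeq2 called 2193 genes (12.8%) and 7 members, and limma-voom 1648 genes (10.4%) and 6 members. Without a filter on low counts 917 genes (3.47% of those tested) and 6 members were called. Leaving out each library in turn gave 1 to 1654 genes and 0 to 4 members. The replicate numbers did not pair the libraries (correlations of same-numbered deviations -0.08, -0.05 and 0.16). These are the numbers of the sample titles; the deposited WT tables are numbered 2 to 4, and by those numbers the 2 shared pairs gave 0.12 and -0.09. With the replicate block 336 genes and 0 members were called (Sox17 adjusted p = 0.0596, Sox18 0.0562, Erg 0.0593), and with the GC and length offset and the replicate block together 626 genes and 5 members. The cause of these shifts was not tested. Of 153 alternative fold changes of the 9 members, 115 kept sign and side of the threshold, 19 lost the call, 16 gained it and 3 turned sign, all of them Ets1: 0.02 without WT replicate 3, and 0.13 and 0.04 on leaving out NM1 KO replicates 2 and 3, in a leave-one-out range of -0.30 to 0.13. Relative to the surface genes, 103 of 108 alternative values kept their sign. Sox7 (-0.01) turned to 0.03 with the GC and length trend removed, 0.04 against the log2 sum of the surface genes, 0.02 without WT replicate 1 and 0.23 without NM1 KO replicate 3 (leave-one-out range -0.15 to 0.23). Erg (0.17) turned to -0.06 without NM1 KO replicate 1 (range -0.06 to 0.35). All 54 alternative values of the 6 pairs kept their sign. The lowest count of a member in a library was 89 (Tal1), the part of depth in the calls was not tested, and the number of libraries limits the exact tests to a p of 0.1.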

Other observations

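Of the HIF genes near to the threshold, 2 had positive values at low levels. Pdk1 had a positive value at a higher level, with means of 29.7 CPM in WT and 39.3 in NM1 KO and no overlap (log2 0.41, edgeR adjusted p = 0.0937). Arnt2, a paralogue of the HIF partner Arnt, had 0.703, 0.352 and 0.0801 CPM in WT and 1.77, 3.78 and 2.70 CPM in NM1 KO, without overlap (log2 2.84, edgeR adjusted p = 0.0608). Car9, a carbonic anhydrase and textbook HIF target, had 0.740, 0.767 and 0.641 CPM in WT and 1.74, 1.71 and 1.93 CPM in NM1 KO (log2 1.32, edgeR adjusted p = 0.0593). Egln3, an oxygen sensor that HIF factors induce, had 10.5, 10.7 and 9.74 CPM in WT and 7.50, 5.68 and 4.26 CPM in NM1 KO (log2 -0.83, edgeR adjusted p = 0.0892). None of these genes was called.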
